A study of Mus musculus with 8 samples.

Results

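Odorant and vomeronasal receptor genes were followed in mouse olfactory mucosa after removal of both olfactory bulbs, the brain target of the olfactory neurons. They comprised every probe set whose only gene symbol in the platform annotation was an odorant receptor (Olfr) or a vomeronasal receptor (Vmn1r or Vmn2r) symbol. That gave 34 of the 12488 probe sets on the array, for 33 genes. Of these, 21 measured odorant receptors, 2 measured type 1 and 11 measured type 2 vomeronasal receptors. Another 6 probe sets were annotated to several genes, receptors among them, and are not members. The mouse genome holds far more receptor genes than this, so the values describe a small sample of the repertoire.

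Total RNA was measured on 8 single-colour arrays, 2 in each of 4 groups. Wild-type C57BL/6 mice formed 2 groups, 1 given carrier and 1 given the chemokine CCL3 by injection, and mice labelled Ccl3-/- formed the same 2. Every group, controls included, had the bilateral bulbectomy. The labels give no age, no time after surgery and no background strain for the Ccl3-/- mice. They also do not say that the 2 arrays of a group came from different animals, so the spread behind each p-value may be only technical. Ccl3 itself read 159.4 to 386.5 on the wild-type arrays and 727.3 to 812.2 on the arrays labelled Ccl3-/-, which goes against the labels; whether the probe set lies in the deleted part is not known here. Genotype directions therefore rest on the labels alone. With 2 arrays per group the precision is limited by their number.

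Each mature olfactory neuron expresses a single odorant receptor gene, chosen from a very large family, and carries the receptor on its cilia, where it activates the G protein Golf and adenylyl cyclase 3. A given receptor is thus present in a small minority of the neurons, and its RNA in the whole mucosa reflects both how many neurons chose it and how much each makes. Fewer cells and less RNA per cell cannot be told apart in bulk RNA. Vomeronasal receptors work in another organ, at the base of the nasal septum, and signal through other G proteins and the channel TRPC2. Bulbectomy cuts the axons of the olfactory neurons, which then die and are replaced from precursors.

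Receptor genes of one family can be nearly identical in sequence, which matters for what a probe set can tell apart. All 34 probe sets matched a gene in the RefSeq table of GRCm38.p6, and 28 had a sequence window there of 250 bases before to 50 bases after the annotated start. In 15 of the 28 the annotated start was an ATG. For the compact odorant receptor genes such a window therefore begins in front of the coding sequence and may miss the promoter. The first 50 bases from the ATG are shown for 2 pairs of neighbouring receptors, with capitals at bases the pair shares. Olfr140 and Olfr1264, which both passed the detection value used here, shared 39 of 50 bases, and Olfr92 and Olfr93, which did not, shared 45 of 50. The median over the 28 pairs of the 8 odorant receptors with such a start was 18 bases. Probe sequences of the array were not available here, so it is not known whether any probe lies in these 50 bases. The shared bases therefore do not show which receptors a probe set can separate. The start of Olfr71, the receptor with the smallest ratio of highest to lowest array, and the window of Olfr15, the receptor with the lowest p for CCL3, are shown with the start codon in capitals.
Olfr140: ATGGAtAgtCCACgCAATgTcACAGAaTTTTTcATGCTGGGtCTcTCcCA
Olfr1264: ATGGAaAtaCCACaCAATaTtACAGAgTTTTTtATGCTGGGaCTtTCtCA
Olfr92: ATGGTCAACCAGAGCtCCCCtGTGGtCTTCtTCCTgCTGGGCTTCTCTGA
Olfr93: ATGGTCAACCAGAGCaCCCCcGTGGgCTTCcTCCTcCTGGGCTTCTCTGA
Olfr71: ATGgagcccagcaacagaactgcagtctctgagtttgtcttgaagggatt
Olfr15: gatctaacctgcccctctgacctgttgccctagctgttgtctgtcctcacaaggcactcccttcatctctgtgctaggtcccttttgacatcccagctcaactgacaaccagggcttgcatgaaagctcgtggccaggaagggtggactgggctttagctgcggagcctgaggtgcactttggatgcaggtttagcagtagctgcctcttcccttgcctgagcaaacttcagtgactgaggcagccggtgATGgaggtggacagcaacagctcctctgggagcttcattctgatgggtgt
In GRCm38.p6 these lie at chr2:90052273-90052322 (Olfr140), chr2:90022015-90022064 (Olfr1264), chr17:37111931-37111980 (Olfr92), chr17:37151921-37151970 (Olfr93) and chr4:43706517-43706566 (Olfr71), all on the minus strand. The window of Olfr15 lies at chr16:3838725-3839024 on the plus strand.

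Few receptors gave a signal above the dim part of the array. The detection value was 362.7 intensity units, the 40th percentile of the whole table, and a probe set passed if 2 or more arrays exceeded it. By this rule 10 of the 34 receptor probe sets passed (29.4%), against 65.6% of all 12422 probe sets that are not controls. They were 9 of 21 odorant receptors, namely Olfr71, Olfr140, Olfr29-ps1, Olfr94, Olfr70, Olfr1264, Olfr15, Olfr1509 and Olfr16, and 1 of 13 vomeronasal receptors, Vmn2r26, a V2R known for sensing peptides. The olfactory neurons themselves were plainly present: the olfactory marker protein gene Omp read 4251.1 to 21778.7, and all 4 of the mature neuron markers on the array passed. Trpc2 was not among the named probe sets, and the 5 other vomeronasal neuron markers, which passed, include genes widely expressed outside that organ, so vomeronasal tissue could not be checked by its defining gene.

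Vmn2r26 was the member just inside, with a second highest array of 413.3. Olfr49 was just outside, with a second highest array of 359, and 3 other members, Olfr93, Vmn2r30 and Olfr91, also exceeded the value on 1 array only. On all 4, that array was wild-type carrier replicate 2. The other 20 members exceeded it on 0 arrays. Among these were Olfr2, the I7 receptor known for its response to octanal, at 128.7 to 238.7, and Olfr1507, the receptor called MOR28 that served to find the first receptor enhancer, at 41.4 to 213.7. Vmn1r51 and Vmn1r45, the V1R members, had medians of 28.65 and 11.35 intensity units.

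Wild-type carrier replicate 2 stood apart at the dim end of the scale, and this bears on the comparisons that use this array. Its 20th percentile was 143.64 intensity units, against 85.2 to 100.9 on the other 7 arrays. The 24 receptor probe sets that did not pass had a median of 168.75 on this array and 57.55 to 91.85 on the others. It held the highest value for 18 of these 24 (75%), against 43.9% of all probe sets that did not pass. After quantile normalization it held the highest value for 11 of the 24 and for 24.1% of all such probe sets. A lift of dim signals on this array was thus shared with other dim probe sets, and the share was larger among receptors; their difference was not tested.

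**Figure D1:**
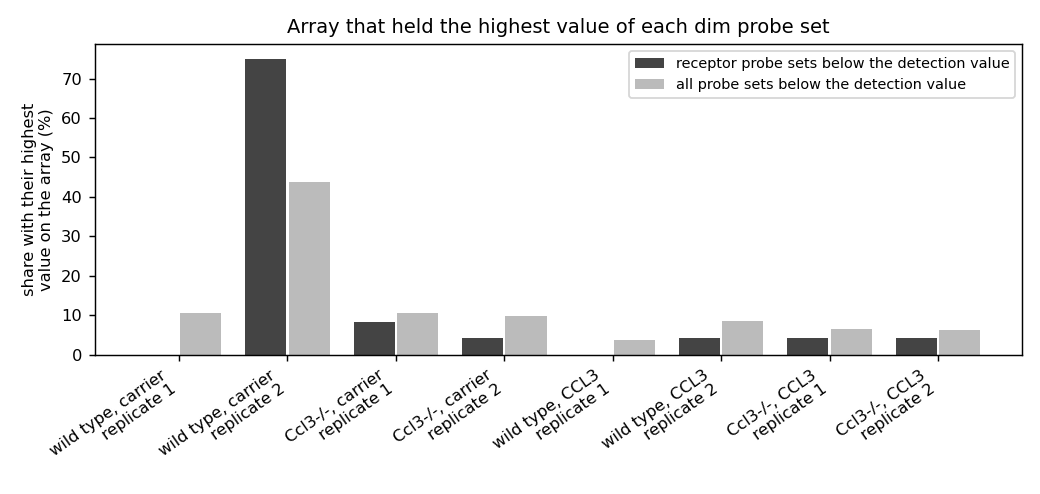
Share of dim probe sets (in percent, vertical axis) that had their highest value on each of the 8 arrays, for 24 receptor probe sets (dark bars) and all probe sets under the detection value (light bars). Wild-type carrier replicate 2 holds 75% of the receptors and 43.9% of all dim probe sets, and every other array holds 10.7% or less.

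The members sit in 14 genomic clusters, groups of receptor genes with gaps of at most 1000000 bases between neighbours. The small chromosome 4 cluster of 8 receptor genes, home of the OR37 family, was measured by 6 probe sets, of which 3 passed. Olfr71 read 4002.6 and 4512.5 on the wild-type carrier arrays, 3632.1 and 3487.7 on the carrier arrays labelled Ccl3-/-, 3576 and 4070.5 on the wild-type CCL3 arrays, and 4459.2 and 3911.7 on the CCL3 arrays labelled Ccl3-/-. Its highest array was 1.29 times its lowest, the narrowest range among the 34 members. Olfr70, of the same cluster, read 534.3 and 1059.3, 456.8 and 698.7, 594 and 693.7, and 740.4 and 426 in the same order of groups. All groups overlapped, and wild-type carrier replicate 2 was the highest array. Olfr29-ps1, a transcribed pseudogene of this cluster, read 1743.7 and 1613.7, 1252.7 and 733.5, 1200.5 and 1457.8, and 1389.2 and 1193.8. Its wild-type carrier arrays were the highest and the carrier arrays labelled Ccl3-/- spanned a wide range. The suffix f of its probe set marks probes that match several members of a gene family, so related receptors can share the signal. The others of the cluster, Olfr155, Olfr157 and Olfr159, did not pass by the probe sets annotated to them alone. A probe set annotated to both Olfr157 and Olfr156, which is not a member, did pass.

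Olfr140 and Olfr1264, the chromosome 2 pair with 39 of 50 shared bases, both passed. Olfr140 read 1218.3 and 1928.8 (wild type, carrier), 1326.1 and 1237.9 (Ccl3-/-, carrier), 1501.7 and 1377.9 (wild type, CCL3) and 1133 and 2076 (Ccl3-/-, CCL3). Olfr1264 read 327.2 and 890, 592.7 and 325.8, 291.3 and 538.9, and 618 and 566.7 in that order. For both, the wild-type carrier replicates lay far apart, and the carrier groups overlapped. Wild-type carrier replicate 2 was high for both receptors.

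On chromosome 17, next to the major histocompatibility complex, 1 of 6 probe sets passed. Olfr94 read 816.6 and 999.4, 602.1 and 967.3, 810 and 1122.6, and 774.2 and 666.1 in the order given for Olfr140. Its wild-type arrays were mostly above those labelled Ccl3-/-, with overlap after carrier. Its neighbours Olfr90, Olfr91, Olfr92 and Olfr93 did not pass, nor did Olfr138. On chromosome 14, whose cluster also holds Olfr1507 and Olfr1508, Olfr1509 passed, with 421 and 387.8, 435.7 and 472.9, 380.6 and 397.8, and 353.9 and 419.6, all close to the detection value. Its highest array was 1.34 times its lowest.

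Olfr15, Olfr16 and Vmn2r26 passed as the sole members of their clusters. Olfr15, the receptor called OR3, read 368 and 570.1 (wild type, carrier), 374.7 and 334.5 (Ccl3-/-, carrier), 447.7 and 473.8 (wild type, CCL3) and 835.1 and 772.6 (Ccl3-/-, CCL3). Both CCL3 arrays labelled Ccl3-/- lay above the other 6. Olfr16, the receptor MOR23 that responds to lyral, read 504 and 97.8, 996.8 and 146.4, 675.8 and 106.1, and 41.5 and 284.7 in the same order. Its highest array was 24.0 times its lowest, and its replicates differed several-fold within every group, so its group means carry little information. Vmn2r26 read 223.7 and 459.2, 413.3 and 169.4, 231.7 and 104.9, and 64 and 193.1, and its 2 arrays above the detection value belonged to different carrier groups.

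**Figure D2:**
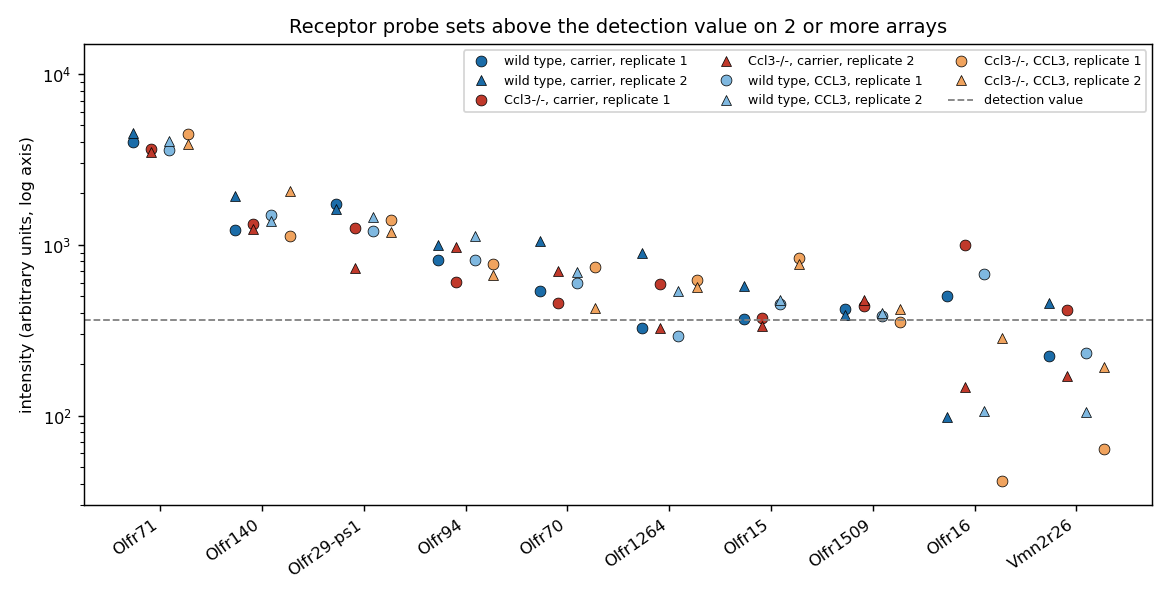
Intensity (log axis, arbitrary units) of the 10 receptor probe sets that passed, with a point for each array, coloured by group and shaped by replicate; the dashed line is the detection value of 362.7. Olfr71 varies 1.29-fold over the arrays and Olfr16 24.0-fold, and Olfr15 is highest on both CCL3 arrays labelled Ccl3-/-.

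No receptor passed an adjusted p of 0.05 in any of 7 comparisons in limma, which was fitted to 8150 probe sets with Benjamini-Hochberg adjustment. No other probe set did so either, so the background of calls was 0% in each. Differences are given on the scale log2(intensity + 102.3), which understates changes of dim genes, as the first group minus the second with a standard error (SE, n = 2 per group).

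In the carrier groups, most receptors that passed had lower values with the Ccl3-/- label than in the wild type. Of the 10 that passed, 8 were lower and 2 higher, with a median of -0.25, while all probe sets had a median of -0.026 and 52.1% were lower. The largest shift among them at an unadjusted p under 0.05 was in Olfr29-ps1, at -0.74 ± 0.29, or 1.67-fold lower (adjusted p = 0.412 in limma). It was the only receptor at that level (1 of 10), against 6.4% of all probe sets in that direction; 0 of 10 were higher, against 5.03%. It was at -0.39 without carrier replicate 2 labelled Ccl3-/-. Olfr71 was also lower without overlap of the groups, at -0.25 ± 0.24, and Olfr1509 higher without overlap, at 0.14 ± 0.30. These were 2 of 10 lower without overlap, against 22.9% of all probe sets, and 1 of 10 higher, against 15.6%. Without wild-type carrier replicate 2 the median was 0.012, and without wild-type carrier replicate 1 it was -0.56, so its size and sign rested on these arrays. The summed intensity of the 8 neutrophil markers, all detected and none at 0, was 121027 and 173139 on the carrier arrays labelled Ccl3-/- and 86139 to 110388 on the other 6; its part in the receptor values was not tested.

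After CCL3, the arrays labelled Ccl3-/- and the wild-type arrays had nearly the same receptor median, at -0.023 against 0.017 for all probe sets. Olfr15 was 1.61-fold higher on the arrays labelled Ccl3-/- (log2 0.69 ± 0.30, adjusted p = 1.00 in limma), without overlap. It was 1 of 10 higher at an unadjusted p under 0.05, against 0.822% of all probe sets, and 0 of 10 were lower, against 0.663%. Olfr1264 was higher without overlap too, at 0.47 ± 0.44, and Olfr94 lower, at -0.37 ± 0.30. That made 2 of 10 higher and 1 of 10 lower without overlap, against 16.5% and 12.9% of all probe sets.

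Within the groups labelled Ccl3-/-, CCL3 compared with carrier gave the largest difference of a receptor at an unadjusted p under 0.05, again in Olfr15. It was 1.98-fold higher with CCL3 (log2 0.99 ± 0.30, 95% confidence interval 0.33 to 1.65), with both CCL3 arrays above both carrier arrays. Its adjusted p was 0.830 in limma, so it did not pass over all probe sets. At an unadjusted p under 0.05 it was 1 of 10 receptors, against 2.77% of all probe sets in that direction, and 0 of 10 were lower, against 2.12%. The difference was 0.92 to 1.05 with each array left out in turn, none with an adjusted p under 0.419. Olfr71 was higher without overlap, at 0.22 ± 0.24, and Olfr1509 lower, at -0.19 ± 0.30. These made 2 of 10 and 1 of 10, against 22.9% and 16% of all probe sets. Olfr16 had a larger shift, -1.15 ± 0.87, that its own spread covers. Both of its CCL3 arrays labelled Ccl3-/- were under the detection value, which it passed only through other groups. A lower value there was therefore favoured by how Olfr16 was selected. The receptor median was 0.11, with 5 higher and 5 lower, against 0.032 for all probe sets; it was 0.020 without CCL3 replicate 1 of that label and 0.17 without replicate 2. On the same CCL3 arrays labelled Ccl3-/- the summed intensity of the 4 red blood cell markers on the array was 84577 and 90224, against 35862 to 58328 on the other 6 arrays. All 4 markers passed the detection value and none was at 0; their part in the Olfr15 value was not tested.

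In wild-type mice CCL3 against carrier put Olfr15 at 0.0014 ± 0.30, with a 95% confidence interval of -0.66 to 0.66 that leaves room for a change of either sign. None of the 10 receptors was at an unadjusted p under 0.05, against 1.98% of all probe sets higher and 2.32% lower. The smallest p belonged to Vmn2r26 among the lower (-0.70 ± 0.52, adjusted p = 0.911 in limma) and to Olfr94 among the higher (0.071 ± 0.30, adjusted p = 0.977). Vmn2r26 passed the detection value only through 2 carrier arrays, so a lower value with CCL3 was favoured by how it was selected. Its difference was -0.31 without wild-type carrier replicate 2, -1.09 without replicate 1, -0.36 without wild-type CCL3 replicate 2 and -1.05 without replicate 1. Olfr94 turned to -0.060 without wild-type carrier replicate 1 and to -0.14 without wild-type CCL3 replicate 2. Olfr29-ps1 was lower without overlap, at -0.32 ± 0.29, which was 1 of 10 against 18.1%; 0 of 10 were higher without overlap, against 12%. The median was -0.12 over the receptors and -0.016 over all probe sets; without wild-type carrier replicate 2 it was 0.067, and without replicate 1 it was -0.26.

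**Figure D3:**
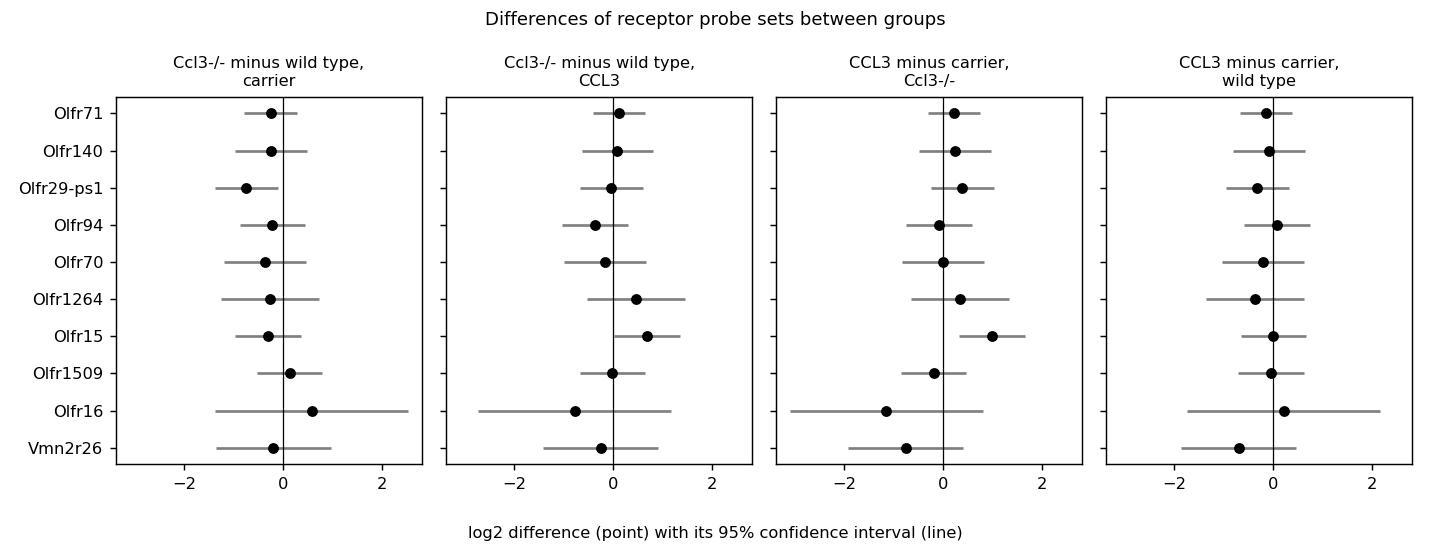
Log2 difference (horizontal axis) of the 10 receptor probe sets that passed, in 4 comparisons of 2 against 2 arrays; points are fitted differences and lines their 95% confidence intervals. The interval excludes 0 for Olfr29-ps1 after carrier and for Olfr15 in both comparisons that involve the CCL3 arrays labelled Ccl3-/-, before adjustment over all probe sets, and it is widest for Olfr16.

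The CCL3 difference was then set against the other genotype. For Olfr15 the interaction was 0.99 ± 0.42 (adjusted p = 0.908 in limma), 1 of 10 receptors higher at an unadjusted p under 0.05 against 3.19% of all probe sets, with 0 of 10 lower against 1.87%. Leaving out wild-type carrier replicate 2 brought it to 0.73. The receptor median was 0.27, with 6 higher and 4 lower, against 0.038 for all probe sets. Leaving out wild-type carrier replicate 2 or 1 brought that median to -0.038 or 0.55.

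Averaged over both genotypes, Olfr15 was at 0.49 ± 0.21 with CCL3 (n = 4 per group, adjusted p = 0.969 in limma), 1 of 10 receptors against 2.36% of all probe sets in that direction, with 0 of 10 lower against 2.17%. The CCL3 and carrier arrays overlapped for all 10 receptors, while 1.58% of all probe sets were higher and 1.14% lower without overlap. Averaged over both injections, Olfr29-ps1 was at -0.39 ± 0.20 on the arrays labelled Ccl3-/- (adjusted p = 0.808), with the smallest p among the lower, and Olfr15 at 0.19 ± 0.21 (adjusted p = 0.881) among the higher. None of the 10 receptors was at an unadjusted p under 0.05 there, against 3.03% of all probe sets higher and 2.9% lower, and none had groups without overlap, against 1.31% higher and 1.88% lower. The averages use the same arrays as the comparisons within them.

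**Figure D4:**
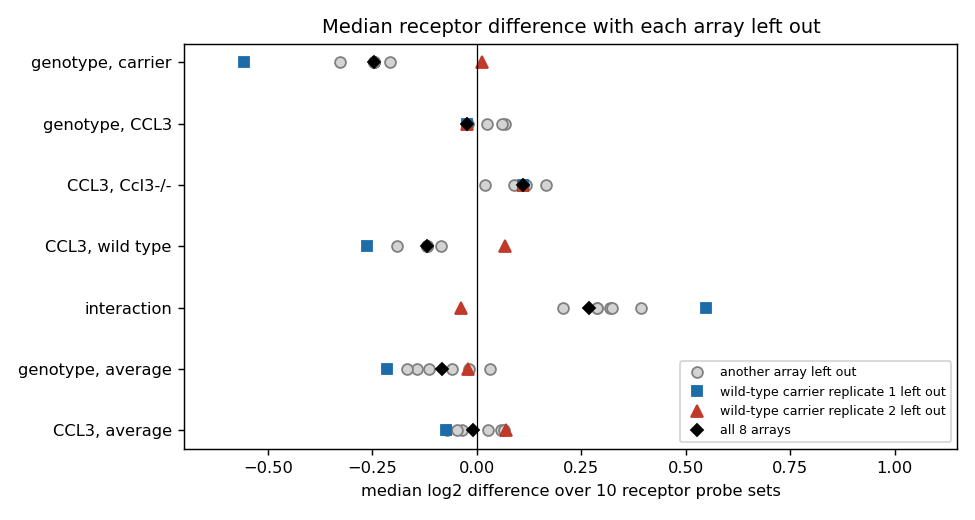
Median log2 difference over the 10 receptor probe sets that passed (horizontal axis) in 7 comparisons, from all 8 arrays (diamonds) and with each array left out in turn (other symbols). After carrier the median moves from -0.25 to 0.012 without wild-type carrier replicate 2 and to -0.56 without wild-type carrier replicate 1; after CCL3, where these arrays play no part, it stays between -0.023 and 0.067.

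The receptors were read beside genes that work with them, in 6 lists of neuronal and supporting-cell genes, each gene taken from its probe set of highest intensity. No gene of these lists passed the adjusted threshold in any of the 7 comparisons in limma. Of 21 genes for receptor transport and receptor gene choice, 12 were on the array and all 12 passed the detection value. After carrier, 8 of the 12 were lower on the arrays labelled Ccl3-/- and 4 higher, against 52.1% and 47.9% of all probe sets. Their median was -0.41, against -0.026 for all probe sets. Reep1, which helps receptors to the cell surface, was at -0.42 ± 0.44, Ebf2, a factor that binds near receptor genes, at -0.58 ± 0.37, and Atf5, the stress factor that stabilises receptor choice, at -0.54 ± 0.42. At an unadjusted p under 0.05, 1 of the 12 was higher, against 5.03% of all probe sets, and 0 were lower, against 6.4%. The higher gene was Lbr, at 0.74 ± 0.24 (adjusted p = 0.375 in limma). Lbr is the lamin B receptor, whose loss from the nuclear rim lets receptor genes gather in silenced foci. For Reep1, Ebf2 and Atf5 the lowest array was carrier replicate 2 labelled Ccl3-/-, at 1203.4, 3276.7 and 5262. Replicate 1 of that group read 3578.8, 7040.8 and 14652.1. The wild-type carrier arrays read 2209.4 to 3609.4, 6854.7 to 7702.5 and 12390 to 13339.9, so the carrier groups overlapped for each. Ehmt2, a gene of this list with a higher median intensity than Reep1, was at -0.53 ± 0.34 with another pattern. It was lowest on carrier replicate 1 labelled Ccl3-/-, at 3796.1, and highest on wild-type carrier replicate 1, at 9148.6.

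Of 22 odorant transduction genes, 11 were on the array and 9 were tested. On the arrays labelled Ccl3-/- after carrier, 3 were higher and 6 lower, with a median of -0.17. At an unadjusted p under 0.05, 2 of the 9 were higher, Cnga2 and Rgs2, against 5.03% of all probe sets, and 0 were lower, against 6.4%. Gnb1 counted as lower by its brightest probe set, at -0.90 ± 0.44, but was at 1.18 ± 0.32 and -0.14 ± 0.35 by its others. With CCL3, averaged over both genotypes, 8 of the 9 were higher, against 51.6% of all probe sets. Their median was 0.15, against 0.0091 for all probe sets. Within either genotype, 6 were higher and 3 lower with CCL3. In the average, 0 of the 9 were higher at an unadjusted p under 0.05, against 2.36%, and 0 were lower, against 2.17%. Between genotypes after carrier, Cnga2, a channel subunit opened by cyclic AMP, was at 0.81 ± 0.35 by its brighter probe set. Its other probe set was at 0.022 ± 0.45. In the same comparison Adcy3, the cyclase, was at -1.04 ± 0.61. It read 10132.7 on wild-type carrier replicate 1 and 1364.3 to 4842.6 on the other arrays. Of 14 vomeronasal transduction genes, 7 were on the array and 5 were tested. Their median was 0.20 after carrier, against -0.026 for all probe sets. The G protein gene Gnao1 was at -0.92 ± 0.35 by its brightest probe set and between -0.30 and -0.16 by its 3 others. H2-M10.1 was at 0.92 ± 0.47 by the probe set used and at -0.92 ± 0.27 by its other. The sign of the list median depended on that choice.

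The receptors were also set beside markers of neuron age. Omp, the mature marker, read 4251.1 and 12949.3 (wild type, carrier), 21778.7 and 8657 (Ccl3-/-, carrier), 12511.5 and 14771.2 (wild type, CCL3) and 16002 and 19808.4 (Ccl3-/-, CCL3). It was lowest on wild-type carrier replicate 1, where Olfr71 read 4002.6, and its carrier groups overlapped. Of 12 tested genes of immature neurons and precursors, 10 were lower after carrier on the arrays labelled Ccl3-/-, with a median of -0.50, 4 of them at an unadjusted p under 0.05 (Neurod1, Neurog1, Sox11 and Marcksl1), while 52.1% of all probe sets were lower and 6.4% were so at that p. With CCL3 on the arrays labelled Ccl3-/-, 9 of the 12 were higher, with a median of 0.35, against 54% of all probe sets. Both comparisons use the same carrier arrays labelled Ccl3-/-. The summed intensity of 8 markers of immature neurons and precursors was 27475 and 16641 on those arrays. It was 28526 and 33129 on the wild-type carrier arrays, and 24962 to 35061 on the CCL3 arrays. The 4 genes named were lower on both of those carrier arrays than on either wild-type carrier array. Of 8 tested genes of sustentacular cells, the supporting cells, 6 were higher after carrier, against 47.9% of all probe sets. Their median was 0.16, against -0.026 for all probe sets. At an unadjusted p under 0.05, 0 of the 8 were higher, against 5.03%, and 0 were lower, against 6.4%. Of 7 tested genes of the mature neuron list, 5 were lower after carrier and 2, Omp and Cnga2, were higher. The median of this list was -0.37, against -0.25 for the receptors and -0.026 for all probe sets. At an unadjusted p under 0.05, 1 of the 7 was higher, Cnga2, against 5.03% of all probe sets, and 0 were lower, against 6.4%.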

How the data were processed

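RNA of 8 arrays was analysed from 1 deposited table of linear intensity values, 1 per probe set and array; how the authors scaled them and with which software is not given in the sources used here. Sample titles gave the groups. The values were not normalized again. Of 12488 probe sets, 10855 had 1 gene symbol, 396 several and 1237 none; 66 control probe sets were left out of the tests. The detection value and the pseudocount were the 40th and 20th percentiles of the table. limma 3.58.1 (R 4.3.3) fitted all 4 groups together on log2(intensity + 102.3) over 8150 probe sets, with an intensity trend, 4 residual degrees of freedom and Benjamini-Hochberg adjustment over all of them. The script was tested on simulated data. The receptors that passed were named with every array, together with those of smallest p and up to 4 genes of a list. Olfr49, Olfr93, Vmn2r30, Olfr91, Olfr2, Olfr1507, the V1R members, Reep1, Lbr, Cnga2, Rgs2, Neurod1 and Neurog1 were named after their values were seen. The members and lists were chosen with earlier results of these data known. Replicate numbers were not used as pairs in the main fit, and the sample titles do not say whether they mark any. Correlations of same-numbered deviations between groups ran from -0.158 to 0.178. Such values show no strong pairing but cannot exclude a shared batch. Alternatives were other normalizations, pseudocounts and filters, no trend, a replicate block, only the groups compared, probe sets with plain IDs, and each array left out; those for dim receptors, and others for the count above the detection value, were added after seeing the data. Sequences are from RefSeq (GRCm38.p6). Protein sequences were not used here. No array duplicated another.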

Additional observations from a re-analysis of the deposited data

Results flagged for a closer look

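The interaction term of Olfr15, its CCL3 difference with the Ccl3-/- label minus that in the wild type, was 0.987 on the log2 scale. It was at an unadjusted p under 0.05 but did not pass over all probe sets (adjusted p = 0.908 in limma), and it ran from 0.73 to 1.24 with each array left out. It was higher in 2 of 2 CCL3 arrays labelled Ccl3-/- than in either carrier array of that label, while the wild-type arrays overlapped.

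A signal also appeared in a probe set that was left out because it is annotated to several receptor genes, Olfr157 and Olfr156. It read 686.2 and 735.3 on the wild-type carrier arrays, 179.7 and 158 on the carrier arrays labelled Ccl3-/-, 356.1 and 370.1 on the wild-type CCL3 arrays, and 531.1 and 399.4 on the CCL3 arrays labelled Ccl3-/-. The groups did not overlap in any of the 4 comparisons of 2 against 2 arrays. After carrier it was at -1.58 ± 0.31 (SE, n = 2 per group, adjusted p = 0.363 in limma), lower in 2 of 2 arrays labelled Ccl3-/-. With CCL3 it was at 1.06 ± 0.31 within the Ccl3-/- label (adjusted p = 0.779) and at -0.80 ± 0.31 in the wild type (adjusted p = 0.911), and the interaction was 1.86 ± 0.44 (adjusted p = 0.908). None of these passed over all probe sets.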

How the results depend on the processing

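The count of receptors past the adjusted threshold was 0 in all 7 comparisons under every alternative run, the replicate block included, where the receptor with the lowest adjusted p (0.387) also missed it; the block changed no call of a receptor. Leaving out each array in turn gave receptor medians from -0.56 to 0.012 for genotype after carrier, -0.26 to 0.067 for CCL3 in the wild type, -0.038 to 0.55 for the interaction and -0.22 to 0.032 for the genotype average. In the first 3 the extremes came without a wild-type carrier array. Its fit then holds 1 array in a group, which is assumed to vary like the others. The median for CCL3 on the arrays labelled Ccl3-/- was 0.24 with a filter at the 60th percentile and -0.0043 with plain probe set IDs, both over fewer receptors, and that for CCL3 in the wild type was -0.27 with no filter, over all 34. The difference of Olfr94 with CCL3 in the wild type turned to -0.060 and -0.14 without wild-type carrier replicate 1 and wild-type CCL3 replicate 2 (range -0.14 to 0.28 over arrays left out); the cause was not tested. The number of receptors above the detection value was 25 at the 20th percentile, 4 at the 60th and 5 when all 8 arrays had to exceed it, and 9 to 10 with each array left out.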

Other observations

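With no filter on low values, all 34 receptor probe sets entered the fit, and none passed an adjusted p of 0.05 in limma in any of the 7 comparisons. For CCL3 in the wild type 4 of them, all lower, were at an unadjusted p under 0.05 (11.8%, against 5.88% of all probe sets). The share was also above that of all probe sets for the interaction (14.7% against 5.22%, 4 higher and 1 lower). So it was for CCL3 within the Ccl3-/- label (8.82% against 4.77%, 1 higher and 2 lower). It was close to that of all probe sets for genotype after CCL3 (2.94% against 2%) and the CCL3 average (5.88% against 5.2%). Those shares rested on 1 and 2 receptors, all lower. The share was below that of all probe sets for genotype after carrier (5.88% against 10.5%) and the genotype average (2.94% against 5.64%). The 4 receptors for CCL3 in the wild type were Vmn2r88, Olfr93, Olfr159 and Olfr90, each with its highest value on wild-type carrier replicate 2. Among those for the interaction, Vmn2r88, Olfr93, Olfr138 and Olfr159 had their highest value on that array too. Olfr1507 read 41.4 and 43.7 on the CCL3 arrays labelled Ccl3-/- and 91.3 to 213.7 on the other 6, all under the detection value. These receptors were named after their values were seen.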
